A study of Mus musculus with 21 samples.

Results

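The genes described here are 58 genes whose products carry a cell through mitosis and cytokinesis: cyclins and kinases of mitotic entry, the anaphase-promoting complex with its substrates, the spindle checkpoint, the spindle, the chromosomal passenger complex, mitotic kinesins, the kinetochore, condensin and the cytokinesis machinery. They were chosen by name for these roles, and all 58 were found among the 22050 entries of the expression table. Each had a mean of at least 1 normalized read and was therefore among the 12782 genes tested.

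RNA was sequenced from dorsal skin keratinocytes that expressed green fluorescent protein (GFP) and were sorted from mice of a mixed FVB, C57Bl and 129sv background. The 4 control samples had the genotype K5-rtTA/tet-GFP, and the 4 p16 samples had K5-rtTA/tet-GFP/tet-p16. Doxycycline was given to both from 3 weeks of age for 6 months. The keratin 5 promoter drives the doxycycline-dependent activator in basal epidermal cells, so the controls carried the activator, the GFP gene and the drug, and lacked only the human p16 gene. Cells bearing CD140a, CD45 or CD31 were gated out, and each sample pooled about 80000 cells from 3 mice. A GFP+ cell of the p16 mice was selected for GFP and not for p16 itself. The study profiled these cells to find how p16-expressing keratinocytes drive proliferation and hyperplasia. The comparison below covers their mitotic genes. Control replicates 1 to 4 held 3414362, 2068248, 3067190 and 1760953 reads. The p16 replicates held 3150237, 3202975, 2884544 and 3169274 reads, in the same order.

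p16 binds the kinases CDK4 and CDK6 and blocks their activation by D cyclins, which keeps the retinoblastoma protein unphosphorylated and E2F target genes silent. Mitotic genes are switched on after the S phase genes, by the MuvB core together with B-Myb and FoxM1, and in resting cells the DREAM complex holds them off through a short promoter element, the cell-cycle genes homology region (CHR). In epidermis, division is largely a matter of the basal layer and the growing hair follicle.

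The samples were first checked against their labels. The human CDKN2A entry, which holds the transgene, had 0.7, 1.3, 2.5 and 1.5 normalized reads in the controls, in the order of replicates 1 to 4 as in all lists of values that follow. In p16 cells it had 1.6, 10.1, 16 and 7.4, and the 8 libraries held 1 to 18 reads of it. The library labelled p16 replicate 1 lay within the range of the controls, and the other 3 p16 libraries lay above it (adjusted p = 0.0952, limma). It is called p16 replicate 1 by its label throughout, and without it the median log2 fold change of the 58 genes was -0.22. p16 replicate 4 stood apart from the other p16 libraries over all genes. The chi-square of its reads per degree of freedom was 6.75, 8.96 and 8.18 against p16 replicates 1 to 3, which were at 3.05 to 3.31 among themselves, while pairs of controls were at 3.64 to 5.33. Without p16 replicate 4 the median log2 fold change of the 58 genes was -0.18, with 46 of them below 0, and without replicate 4 of both groups it was -0.12, with 40 below 0. With all 8 samples the median was -0.26, with 48 below 0. GFP was read at 4152.0, 5798.2, 5458.0 and 5912.6 normalized reads in the controls and at 3624.4, 3978.8, 3161.8 and 3453.3 in p16 cells. It fell there by 0.58 ± 0.12 (SE) on the log2 scale (adjusted p = 0.0167, limma), without overlap of the groups. Mouse Cdkn2a was read at 0.0 to 3.3 normalized reads in the controls and 0.0 to 5.5 in p16 cells, and Rb1, the retinoblastoma gene, at 34.8 ± 10.4 and 27.4 ± 4.78 (SD, n = 4 each, adjusted p = 0.616, limma). The basal keratins were abundant in every sample, with Krt5 at 13137 ± 4273 normalized reads in controls and 10044 ± 598 in p16 cells and Krt14 at 11699 ± 3269 and 9690 ± 584 (SD, n = 4 each).

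Most mitotic genes had a lower mean in p16 cells, by a small amount, and none passed the test across all genes. The log2 fold change was below 0 for 48 of the 58 genes (82.8%) and above 0 for 10, against 50.4% below 0 among all genes tested, with a median of -0.26 against 0.00 and a range of -1.03 (Spc24) to 0.24 (Cdc25b). No member had an adjusted p under 0.05 in either direction in limma, edgeR or DESeq2. Of all genes tested, 2.61% were called lower and 1.24% higher by limma, 2.79% and 1.5% by edgeR, and 2.31% and 1.23% by DESeq2. At an unadjusted limma p under 0.05, 11 members (19.0%) were lower and 0 were higher, where the shares of all genes were 8.93% and 7.02%. The same unadjusted counts were 12 lower and 1 higher of 57 members in edgeR, where 9% and 7.31% of all genes were. They were 3 lower and 0 higher in DESeq2, where 6.21% and 4.57% of all genes were. Only Aurkb had all p16 samples below all controls and no member had them all above, where 5.63% of all genes had non-overlapping groups with p16 lower and 4.19% with p16 higher.

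**Figure D1:**
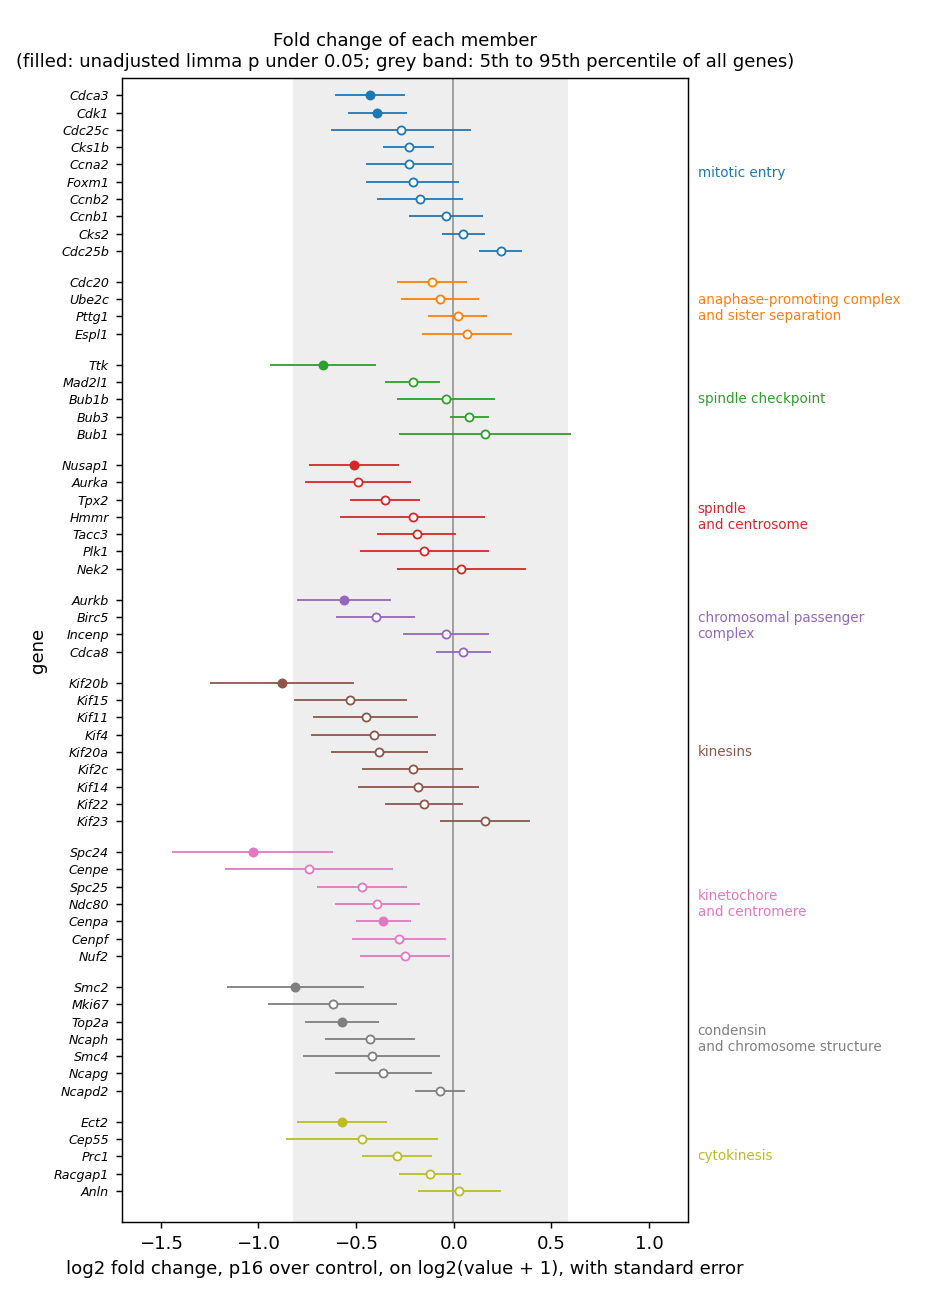
Log2 fold change (p16 over control, on log2 of the normalized value plus 1) of each of the 58 genes by role, with the limma standard error as a bar, 4 samples a group. Filled points have an unadjusted limma p under 0.05, and the grey band spans the 5th to 95th percentile of all genes tested (-0.81 to 0.58). Most points lie left of the grey line at the median of all genes, and the 7 kinetochore and 7 condensin genes are all below 0.

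The members were lowest in 2 of the 4 p16 samples. The normalized reads of the 58 genes summed to 3705, 4192, 4137 and 4551 in the controls (4146 ± 347, SD). In p16 cells they summed to 3138, 4292, 3862 and 3045 (3584 ± 597, SD). p16 replicates 1 and 4 were below every control, while p16 replicates 2 and 3 lay within the control range. Relative to the control mean, the median log2 ratio over the members was -0.46, 0.04, -0.09 and -0.52 in p16 replicates 1 to 4, and between -0.14 and 0.21 in the controls. In p16 replicate 1, 37 members (63.8%) were below the lowest control, and in p16 replicate 4 it was 35 (60.3%), where 21.9% and 27.8% of all genes tested were. In p16 replicate 3 it was 18 members (31.0%, against 22.0% of all genes), and in p16 replicate 2 only 7 (12.1%, against 19.3%). p16 replicate 2 had the highest value of the 4 p16 samples for 36 members. The human CDKN2A entry had 1.6, 10.1, 16 and 7.4 normalized reads in p16 replicates 1 to 4. It had only 1 to 18 reads in any library, too few to rank p16 replicate 4 against p16 replicate 2. The part of the transgene level in the result was not tested. Without p16 replicate 1 the count of members lower at an unadjusted p under 0.05 dropped from 11 to 2, without p16 replicate 4 to 6 and without control replicate 4 to 5, and without p16 replicate 2 it went up to 16. Fewer dividing cells and less of these RNAs per dividing cell cannot be told apart in such pooled samples.

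**Figure D2:**
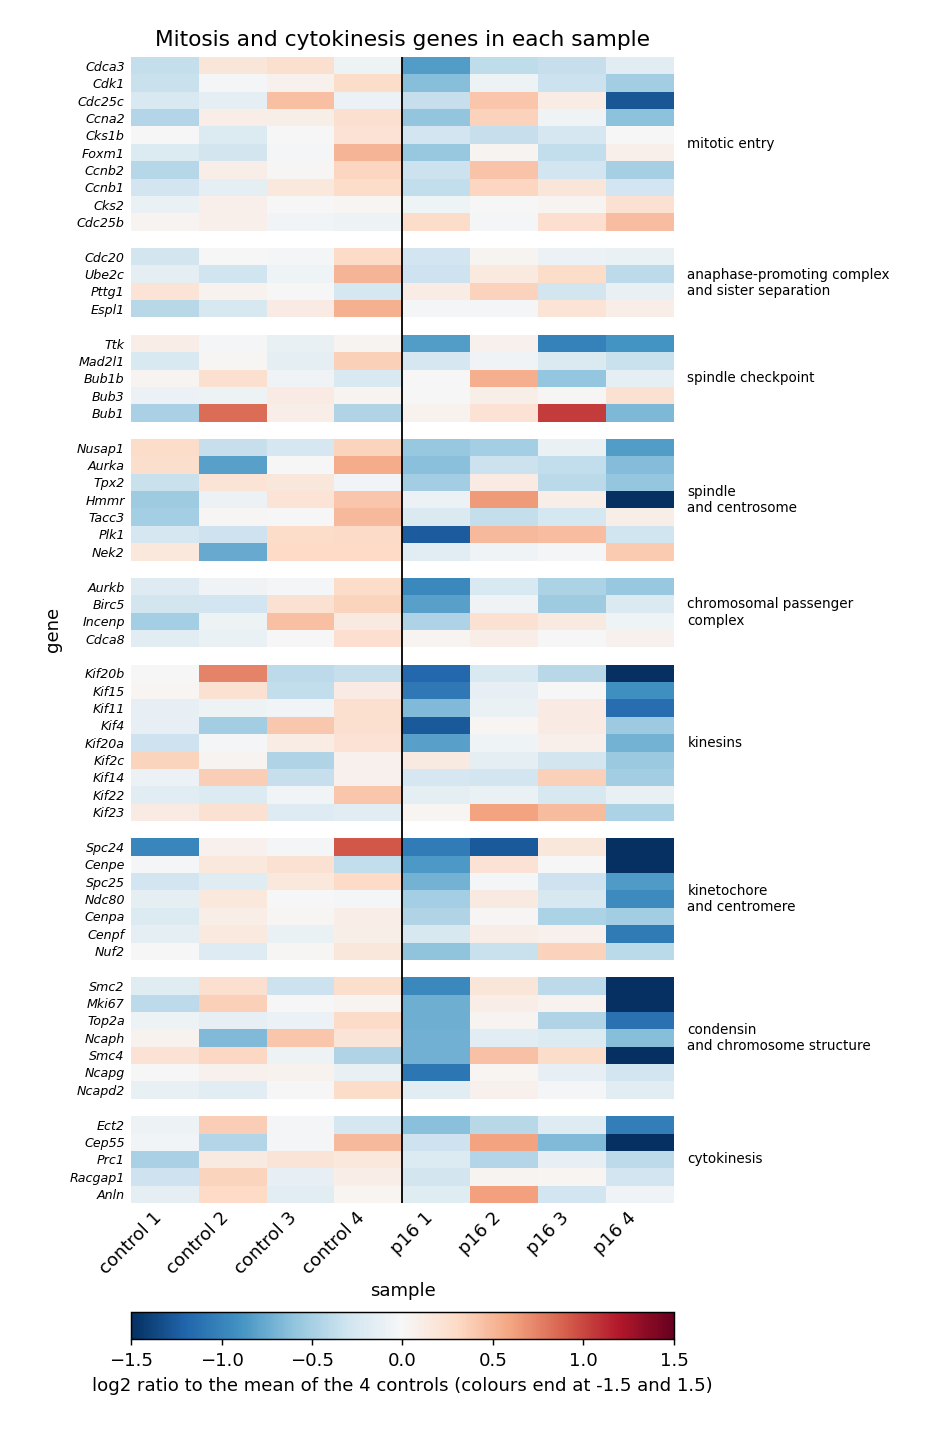
Each of the 58 genes (rows, by role) in each of the 8 samples (columns), as the log2 ratio of the normalized value plus 1 to the mean of the 4 controls (blue lower, red higher, colours end at -1.5 and 1.5). The columns of p16 replicates 1 and 4 are mostly blue, and those of p16 replicates 2 and 3 hold both colours.

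**Figure D3:**
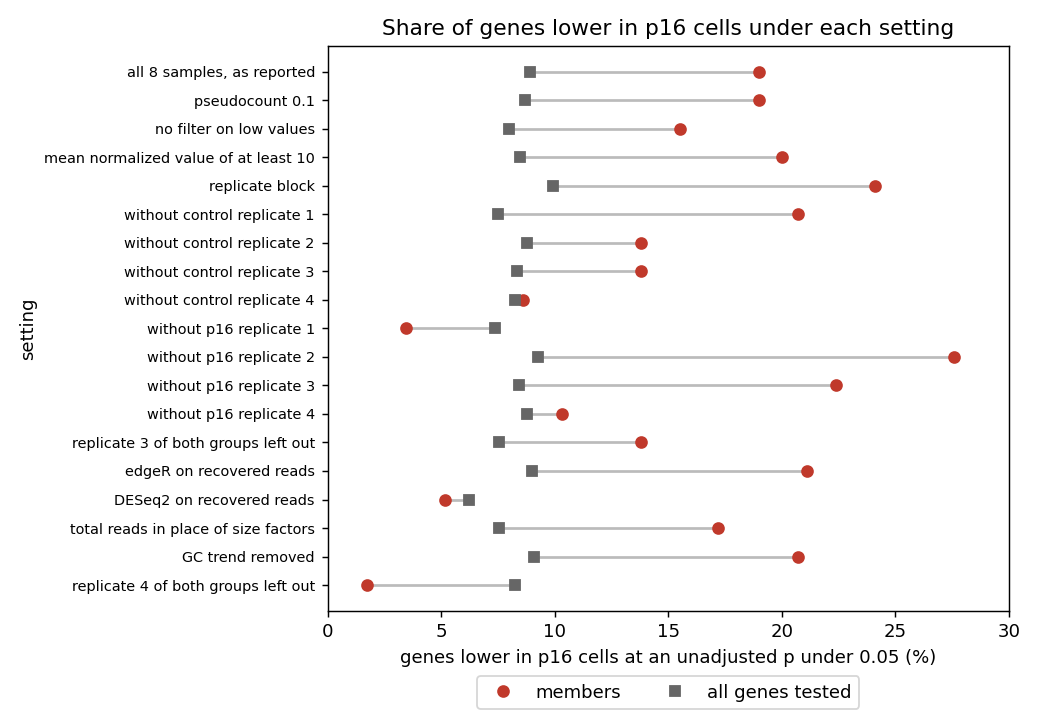
Percentage of genes lower in p16 cells at an unadjusted p under 0.05 among the members tested (red circles) and among all genes tested (grey squares), for the comparison as reported and for each other way of processing or left-out sample. The members' share is 19.0% with all 8 samples and drops below that of all genes without p16 replicate 1 (3.45%), without replicate 4 of both groups (1.72%) and in DESeq2 (5.17%).

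Most member promoters held the CHR, the element named above through which mitotic genes are held off in resting cells. The members were chosen by role and not by this element. Its share describes this class of genes and not the samples. RefSeq windows of 300 bases, from 250 before to 50 after the start, were at hand for 49 of the 58 members (53 windows) and for 9717 tested genes (12422 windows, members included). A CHR (TTTGAA or TTTAAA, either strand) stood in 43 of the 53 member windows (81.1%) and in 19.2% of all windows. The CCAAT box (CCAAT, either strand), which NF-Y binds, stood in 39 member windows (73.6%, against 37.6%), and both elements in 35 (66.0%, against 7.73%). An E2F site (TTTCCCGC or TTTGGCGC, either strand) stood in 3 member windows (5.66%, against 2.79%). The 39 members with a CHR had a median log2 fold change of -0.29, with 87.2% below 0, and the 10 members without one had -0.08, with 50% below 0. The 877 other tested genes with both a CHR and a CCAAT box in 1 window had a median of -0.01 and 51.8% below 0, close to the 49.3% of the 8791 other genes without both. The members were split on the CHR alone and the other genes on both elements, so the splits are not a like comparison. The 150 bases before the start follow for 6 members, those with the lowest p that held one of these motifs within these bases. Spc24 (unadjusted p = 0.0252, limma) and Kif20b (unadjusted p = 0.0323, limma) had a lower p than Smc2 but no window with such a match. The sequences thus show how the elements sit in members that hold them, not in every member with a low p. They are from RefSeq (GRCm38.p6) and written along the strand of the gene. Capitals mark the CHR and the CCAAT box, where TTCAAA and ATTGG are these motifs on the opposite strand.
Top2a, chr11:99024190-99024339, minus strand: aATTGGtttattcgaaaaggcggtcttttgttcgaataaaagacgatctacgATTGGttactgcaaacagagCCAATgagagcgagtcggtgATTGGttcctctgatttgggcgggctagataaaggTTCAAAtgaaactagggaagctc
Cenpa, chr5:30666736-30666885, plus strand: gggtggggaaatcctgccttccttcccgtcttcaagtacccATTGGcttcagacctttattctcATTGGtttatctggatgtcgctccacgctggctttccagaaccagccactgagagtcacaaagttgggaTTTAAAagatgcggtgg
Cdk1, chr10:69352913-69353062, minus strand: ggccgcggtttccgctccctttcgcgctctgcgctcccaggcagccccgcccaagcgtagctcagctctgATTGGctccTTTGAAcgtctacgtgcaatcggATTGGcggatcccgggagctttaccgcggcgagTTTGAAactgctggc
Ttk, chr9:83834539-83834688, plus strand: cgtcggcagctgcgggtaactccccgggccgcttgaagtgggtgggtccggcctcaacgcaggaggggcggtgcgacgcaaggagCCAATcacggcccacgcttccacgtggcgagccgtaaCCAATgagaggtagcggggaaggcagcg
Ect2, chr3:27153879-27154028, minus strand: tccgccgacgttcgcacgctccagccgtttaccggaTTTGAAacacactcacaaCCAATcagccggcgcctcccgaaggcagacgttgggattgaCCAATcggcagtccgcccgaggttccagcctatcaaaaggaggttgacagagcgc
Smc2, chr4:52439071-52439220, plus strand: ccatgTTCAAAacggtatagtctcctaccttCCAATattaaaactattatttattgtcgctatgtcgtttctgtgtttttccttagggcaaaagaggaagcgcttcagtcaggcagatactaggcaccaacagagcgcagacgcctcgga
In Cdk1 and Cenpa a CHR lay 15 to 10 and 17 to 12 bases before the start, with CCAAT boxes on the opposite strand further up, and Top2a had its CHR at 23 to 18 and 4 CCAAT boxes. Ttk had CCAAT boxes and no CHR in these 150 bases. A match is a description of these letters and not evidence of binding.

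Among the 10 genes of mitotic entry, 8 had a log2 fold change below 0, the median was -0.22 and 2 were lower at an unadjusted p under 0.05. Cdk1 (chr10:69335146-69352938), the kinase that drives entry into mitosis, had 118.7, 147.6, 157.0 and 181.8 normalized reads in the controls and 95.9, 141.3, 119.7 and 103.6 in p16 cells. Its log2 fold change was -0.39 ± 0.15 (SE, unadjusted p = 0.0230 and adjusted p = 0.214, limma). p16 replicates 2 and 3 overlapped the controls, p16 replicates 1 and 4 lay below them all, and without replicate 4 of both groups the log2 fold change was -0.25 (unadjusted p = 0.132, limma). Cdca3, a trigger of mitotic entry that promotes loss of the Cdk1 inhibitor Wee1, had 56.4, 82.1, 86.0 and 68.8 normalized reads in controls and 40.0, 55.4, 56.7 and 65.0 in p16 cells. For Cdca3 the log2 fold change was -0.43 ± 0.18 (SE, adjusted p = 0.262, limma), with 2 p16 samples below every control. The partners of Cdk1 had fold changes nearer to 0: Ccnb1 had a log2 fold change of -0.04 ± 0.19, Ccnb2 of -0.17 ± 0.22 and Ccna2 of -0.23 ± 0.22 (SE). Foxm1, which encodes an activator of mitotic genes, had -0.21 ± 0.24 (SE). Cdc25b, the phosphatase that starts Cdk1 activation, went the other way and was the most abundant of the group, with 234.4, 240.0, 222.2 and 216.9 normalized reads in controls and 275.8, 224.1, 271.3 and 314.1 in p16 cells. For Cdc25b the log2 fold change was 0.24 ± 0.11 (SE, adjusted p = 0.313, limma), and without replicate 4 of both groups it was 0.14 (unadjusted p = 0.23, limma). Here 3 of the 4 p16 samples were above every control, with p16 replicate 2 inside the control range. Cks2, a small Cdk1-binding protein, had means of 140 ± 7.44 and 145 ± 12.9 (SD, n = 4 each).

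The genes of the metaphase to anaphase step had the median nearest to 0 of the 9 role groups. Of the 4 genes of the anaphase-promoting complex and sister separation, 2 lay on each side of 0, with a median log2 fold change of -0.02 and no unadjusted p under 0.05. Cdc20, the activator of the complex, had 34.9, 42.4, 41.8 and 51.9 normalized reads in controls and 34.4, 43.7, 39.9 and 39.5 in p16 cells. For Cdc20 the log2 fold change was -0.11 ± 0.18 (SE), and with 1 sample left out it ranged from -0.20 (without control replicate 1) to -0.01 (without control replicate 4). Pttg1, securin, the inhibitor that the complex destroys, had 152.1, 137.3, 132.8 and 110.0 in controls and 143.1, 168.6, 109.1 and 122.5 in p16 cells. For Pttg1 the log2 fold change was 0.02 ± 0.15 (SE). The groups overlapped in both. Espl1, separase, had means of 26.9 ± 8.44 and 27.4 ± 2.12 (SD, n = 4 each).

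Of the 5 spindle checkpoint genes, 3 had a log2 fold change below 0, the median was -0.04, and Ttk alone was lower at an unadjusted p under 0.05. Ttk, the Mps1 kinase that starts the checkpoint signal at unattached kinetochores, had 22.3, 20.5, 19.2 and 21.4 normalized reads in controls and 11.2, 21.9, 9.8 and 10.7 in p16 cells. For Ttk the log2 fold change was -0.67 ± 0.27 (SE, unadjusted p = 0.0265 and adjusted p = 0.229, limma). The controls were tight, 3 p16 samples were at about the same low level, and p16 replicate 2 was in the control range. The checkpoint protein that was read most, Bub3, had 270.8, 272.1, 314.0 and 294.9 in controls and 287.0, 305.3, 289.9 and 337.9 in p16 cells. For Bub3 the log2 fold change was 0.08 ± 0.10 (SE), and with 1 sample left out it ranged from 0.03 (without p16 replicate 4) to 0.12 (without control replicate 3). Bub1, a checkpoint kinase at the kinetochore, had 2 to 12 reads per library, with means of 5.03 ± 2.81 and 5.85 ± 3.42 normalized reads (SD, n = 4 each), and the groups overlapped.

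Of the 7 spindle and centrosome genes, 6 had a log2 fold change below 0 (median -0.21) and 1 was lower at an unadjusted p under 0.05. Nusap1, which bundles spindle microtubules near chromosomes, had 43.8, 28.2, 30.1 and 45.8 normalized reads in controls and 24.0, 25.0, 33.7 and 19.7 in p16 cells. For Nusap1 the log2 fold change was -0.51 ± 0.23 (SE, unadjusted p = 0.0443 and adjusted p = 0.294, limma), and without replicate 4 of both groups it was -0.28 (unadjusted p = 0.259, limma). Tpx2, the spindle assembly factor that activates Aurora A, had 71.2, 104.0, 101.1 and 87.1 in controls and 62.4, 97.6, 67.4 and 60.0 in p16 cells. For Tpx2 the log2 fold change was -0.35 ± 0.18 (SE, adjusted p = 0.365, limma). In each of these genes 3 p16 samples were below every control, and the fourth was replicate 3 for Nusap1 and replicate 2 for Tpx2. Nek2, a kinase of centrosome separation, had means of 7.62 ± 2.53 and 7.60 ± 1.56 (SD, n = 4 each), and Plk1, a master kinase of mitosis, had 34.3 ± 7.81 and 33.8 ± 16.5, with p16 replicate 1 at 13.6 and p16 replicate 2 at 47.6.

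The chromosomal passenger complex corrects faulty attachments of chromosomes to the spindle, and its 4 genes had a median log2 fold change of -0.22. Aurkb (chr11:69045647-69051664), its kinase, had 18.5, 20.5, 20.9 and 26.0 normalized reads in controls and 10.4, 18.0, 15.1 and 14.0 in p16 cells, so that the 2 groups did not overlap (exact two-sided permutation p = 0.0286, the smallest that 4 against 4 samples can give). Its log2 fold change was -0.56 ± 0.24 (SE, unadjusted p = 0.0355 and adjusted p = 0.265, limma). The libraries held between 13 and 25 reads of it. Birc5, survivin, had 64.5, 64.2, 91.9 and 99.3 in controls and 44.0, 75.7, 54.1 and 67.4 in p16 cells. For Birc5 the log2 fold change was -0.40 ± 0.20 (SE), with 2 p16 samples inside the control range, and without p16 replicate 1 it was -0.26 (unadjusted p = 0.207, limma). The other subunits had fold changes nearer to 0, with Incenp at a log2 fold change of -0.04 ± 0.22 (SE) and Cdca8, borealin, at means of 59.4 ± 7.77 and 61.3 ± 1.59 (SD, n = 4 each).

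Of the 9 kinesins, motors that build the spindle and move chromosomes, 8 had a log2 fold change below 0 and the median was -0.38. Kif20b, a kinesin of late cytokinesis, had 15.6, 27.0, 11.7 and 12.2 normalized reads in controls and 6.4, 13.3, 11.5 and 4.1 in p16 cells. For Kif20b the log2 fold change was -0.88 ± 0.37 (SE, unadjusted p = 0.0323 and adjusted p = 0.254, limma). It was the only kinesin with an unadjusted p under 0.05, and it had only 5 to 21 reads per library. Kif23, the motor of the central spindle and the kinesin with the most reads, had 43.0, 46.2, 34.2 and 35.1 in controls and 40.0, 60.1, 55.0 and 28.0 in p16 cells. For Kif23 the log2 fold change was 0.16 ± 0.23 (SE), and with 1 sample left out it ranged from 0.01 (without p16 replicate 2) to 0.37 (without p16 replicate 4). In p16 replicate 4, 8 of the 9 kinesins were below the lowest control, in p16 replicate 1 it was 5, in p16 replicate 3 it was 2 and in p16 replicate 2 it was 0. The shares of all genes tested were 27.8%, 21.9%, 22% and 19.3%, in the same order.

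All 7 kinetochore and centromere genes had a log2 fold change below 0 (median -0.39), and all 7 were below every control in both p16 replicate 1 and p16 replicate 4. Of all genes tested, 21.9% and 27.8% were below every control in these samples. Cenpa (chr5:30666777-30674830), the histone H3 variant that marks the centromere, had 134.3, 166.8, 157.0 and 166.5 normalized reads in controls and 113.5, 157.7, 111.7 and 108.5 in p16 cells. For Cenpa the log2 fold change was -0.36 ± 0.14 (SE, unadjusted p = 0.0217 and adjusted p = 0.207, limma). Again 3 p16 samples were below every control and p16 replicate 2 was not. Spc24, a subunit of the Ndc80 complex that grips microtubules, had the lowest fold change of all members, with 36.3, 75.7, 71.0 and 139.0 in controls and 34.4, 29.7, 81.6 and 17.3 in p16 cells. For Spc24 the log2 fold change was -1.03 ± 0.41 (SE, unadjusted p = 0.0252 and adjusted p = 0.223, limma). Its controls alone spread from 36.3 to 139.0, and the exact two-sided permutation p was 0.200. Without replicate 4 of both groups the log2 fold change of Spc24 was -0.40 (unadjusted p = 0.255, limma), where that of Kif20b was -0.72. The other subunits of that complex had smaller differences, with log2 fold changes of -0.39 ± 0.22 (Ndc80), -0.25 ± 0.23 (Nuf2) and -0.47 ± 0.23 (Spc25, all SE).

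**Figure D4:**
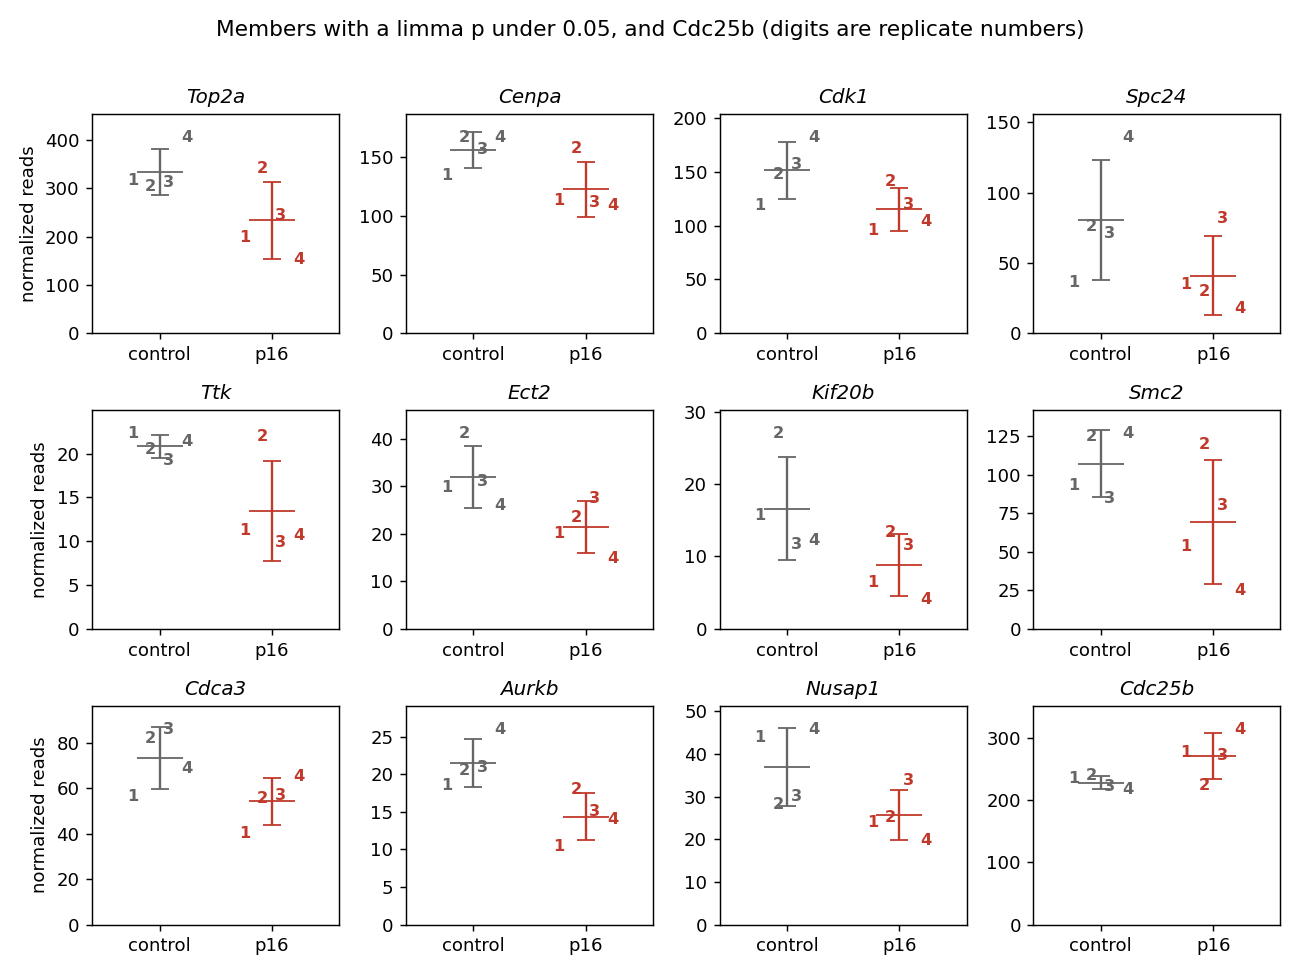
Normalized reads in the 4 control (grey) and 4 p16 (red) samples of the 11 members with an unadjusted limma p under 0.05 and of Cdc25b, the member with the highest log2 fold change. Digits are replicate numbers, the long bar is the mean and the whiskers are 1 SD. Groups are apart only for Aurkb, and p16 replicate 2 lies among the controls for Top2a, Cenpa, Ttk, Smc2, Cdk1 and Kif20b.

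Condensin and the chromosome structure genes showed the lowest median of all role groups, -0.43, with all 7 below 0. Their normalized reads summed to 1007, 1127, 1019 and 1128 in controls and to 655.6, 1170, 983.2 and 461.1 in p16 cells, so that p16 replicates 1 and 4 were far below the controls, p16 replicate 3 just below them and p16 replicate 2 above them. Top2a (chr11:98992943-99024189), the topoisomerase that untangles sister DNA before anaphase, had 315.3, 304.2, 312.4 and 404.9 in controls and 199.1, 340.4, 242.9 and 152.1 in p16 cells. For Top2a the log2 fold change was -0.57 ± 0.19 (SE, unadjusted p = 0.0101 and adjusted p = 0.137, limma). It had the lowest adjusted p of the 58 genes. That p was 0.0137 without p16 replicate 2 and 0.175 to 0.323 with each other sample left out in turn, and without replicate 4 of both groups the log2 fold change of Top2a was -0.29 (unadjusted p = 0.0813 and adjusted p = 0.422, limma). Smc2, a core ATPase of condensin, had 92.7, 124.5, 84.4 and 126.8 in controls and 53.6, 119.5, 79.8 and 24.7 in p16 cells. For Smc2 the log2 fold change was -0.81 ± 0.35 (SE, unadjusted p = 0.0343 and adjusted p = 0.260, limma). Without p16 replicate 4 it was -0.39 (unadjusted p = 0.098, limma), and in edgeR and DESeq2 it was -0.60 and -0.62 (unadjusted p = 0.089 and 0.182). Its partner Smc4 had a log2 fold change of -0.42 ± 0.35 (SE) and the condensin subunit Ncapd2 one of -0.07 ± 0.13 (SE). Smc4 had 253.7, 269.5, 205.5 and 158.9 normalized reads in controls and 131.1, 295.1, 263.3 and 68.2 in p16 cells. For Smc4, p16 replicates 1 and 4 were thus below every control, p16 replicate 3 was inside their range and p16 replicate 2 above them all. Apart from p16 replicate 4, the lowest, the p16 values of Smc4 thus lay below, inside and above the control range. Its fold change below 0 rested largely on p16 replicate 4. Mki67, the Ki67 antigen that is the usual stain for cycling cells, was chosen after its values were seen. It had 153.6, 259.2, 200.4 and 207.8 in controls and 120.7, 215.5, 210.1 and 53.4 in p16 cells. For Mki67 the log2 fold change was -0.62 ± 0.33 (SE, adjusted p = 0.396, limma). For Mki67, p16 replicate 4 was thus far below every control, p16 replicate 1 was below them too, and p16 replicates 2 and 3 were inside the control range. The size of the Mki67 fold change depended on p16 replicate 4.

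Of the 5 cytokinesis genes, 4 had a log2 fold change below 0 (median -0.29). Ect2, the exchange factor that activates RhoA at the cleavage furrow, had 29.7, 41.1, 30.9 and 26.0 normalized reads in controls and 20, 23.4, 27.5 and 14.8 in p16 cells. For Ect2 the log2 fold change was -0.57 ± 0.23 (SE, unadjusted p = 0.0296 and adjusted p = 0.243, limma), with 3 p16 samples below every control. Racgap1, its partner at the central spindle and the most abundant gene of the group, had 74.2, 116.8, 84.4 and 99.3 in controls and 76.0, 95.3, 94.0 and 75.6 in p16 cells. For Racgap1 the log2 fold change was -0.12 ± 0.16 (SE), with every p16 sample inside the control range, and with 1 sample left out it ranged from -0.23 (without control replicate 1) to -0.01 (without control replicate 2). Anln, anillin, a scaffold of the contractile ring, had means of 51.5 ± 8.19 and 53.7 ± 17.1 (SD, n = 4 each).

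No gene of 7 further lists of mitotic genes and of 1 list of S phase genes had an adjusted p under 0.05 in limma, edgeR or DESeq2. None of 17 genes of the anaphase-promoting complex and its co-factors had an unadjusted p under 0.05 in limma, edgeR or DESeq2 (median log2 fold change 0.02), the lowest p being that of the subunit Anapc7 (log2 fold change -0.26 ± 0.16, SE, adjusted p = 0.474, limma). Of 20 DREAM, MuvB, B-Myb and E2F genes, 2 were lower and 2 higher at an unadjusted limma p under 0.05 (2 and 2 in edgeR, 1 and 0 in DESeq2), and the lowest p was that of Rbl1, which encodes the pocket protein p107 (137 ± 24.1 against 102 ± 16.8 normalized reads, SD, n = 4 each, adjusted p = 0.170, limma). Of 32 further kinetochore and centromere genes 2 were lower and 0 higher (1 and 0 in edgeR, 1 and 0 in DESeq2), with Ska1, a coupler of kinetochores to microtubules, at 37.4 ± 7.61 and 24.8 ± 5.22 (SD, n = 4 each, adjusted p = 0.198, limma). The shares lower in these 3 lists were 0%, 10% and 6.25%, beside the 8.93% of all genes.

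In the 4 remaining mitotic lists 1 or 2 genes each were lower at that threshold in limma. The shares lower were 6.67% (cohesin), 33.3% (further condensin), 9.09% (kinases and phosphatases) and 4.44% (spindle, centrosome and cytokinesis), beside the 8.93% of all genes. Of 15 cohesin genes 1 was lower at an unadjusted p under 0.05, Wapl, the cohesin release factor (log2 fold change -0.40 ± 0.15, SE, adjusted p = 0.206, limma), and of 3 further condensin genes 1 was lower, Ncapg2 (-0.66 ± 0.24, SE, adjusted p = 0.183, limma), with 0 higher in either list in limma, and 1 lower and 0 higher in each list by edgeR and by DESeq2. Cohesin genes were below 0 in 13 of 15 cases (86.7%, against 50.4% of all genes). Their summed normalized reads were 2926, 3284, 2664 and 2568 in controls and 2546, 3008, 2860 and 1786 in p16 cells. In p16 replicates 1 to 4, 46.7%, 0%, 13.3% and 86.7% of them were below the lowest control, where 21.9%, 19.3%, 22.0% and 27.8% of all genes were. Of 22 further mitotic kinases and phosphatases 2 were lower and 2 higher (2 and 3 of 19 in edgeR, 2 and 1 in DESeq2), led by Nek6, a mitotic kinase of the NIMA family, with 14.1, 11.6, 17.5 and 18.3 normalized reads in controls and 2.4, 10.9, 4.4 and 5.8 in p16 cells. For Nek6 the log2 fold change was -1.38 ± 0.37 (SE, adjusted p = 0.0543, limma), and the groups did not overlap. Of 45 further spindle, centrosome and cytokinesis genes 2 were lower and 0 higher (2 and 0 of 39 in edgeR, 1 and 0 in DESeq2), with Psrc1, a spindle protein, at 51.3 ± 10.5 and 34.8 ± 9.26 (SD, n = 4 each, adjusted p = 0.200, limma).

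S phase genes, which precede the mitotic genes in the cycle, were mostly below 0 too. Of 45 S phase and DNA replication genes 42 had a log2 fold change below 0 (93.3%, against 50.4% of all genes), with a median of -0.20. At an unadjusted limma p under 0.05, 11 were lower (24.4%, against 8.93% of all genes) and 0 higher. The same counts were 13 and 0 in edgeR and 8 and 0 in DESeq2, where 9% and 6.21% of all genes were lower. The lowest adjusted p was that of Tyms, thymidylate synthase, with 123.1, 107.8, 102.7 and 125.3 normalized reads in controls and 58.4, 91.3, 74.5 and 91.3 in p16 cells (log2 fold change -0.55 ± 0.16, SE, adjusted p = 0.0708, limma). The samples ordered differently from the mitotic genes: the median log2 ratio of the S phase genes was -0.33, -0.12, -0.33 and -0.06 in p16 replicates 1 to 4, so that p16 replicate 4, the lowest for the mitotic genes, was the nearest to the controls here.

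Markers of other cells differed between the same samples. Of 10 hair-follicle stem cell markers 7 were called lower and 1 higher by limma, with sums of 4533, 3600, 4194 and 4290 normalized reads in controls and 2614, 3156, 3263 and 1678 in p16 cells. Sox9 was the most abundant (log2 fold change -0.74), the other lower calls were Cd34, Lhx2, Nfatc1, Tcf7l1, Fgf18 and Foxc1, and Krt24 was higher. p16 replicate 4 had the lowest p16 sum of this list and of the mitotic genes, but the highest was in p16 replicate 3 here and in p16 replicate 2 for the mitotic genes. Of 9 sebaceous gland markers 7 were called lower (Scd1, the most abundant, with Mgst1, Elovl3, Plin2, Pparg, Cidea and Far2) and 0 higher, with sums of 2088, 1785, 2147 and 2145 in controls and 634.8, 990.8, 732.4 and 717.8 in p16 cells. Here p16 replicate 2 had the highest p16 sum, as it had for the mitotic genes, but the lowest was in p16 replicate 1 and not in p16 replicate 4. The hair matrix list had 2 of 8 called lower (Hoxc13, the most abundant, and Krt35; 250.8, 133.5, 253.2 and 349.8 against 139.2, 149.1, 145.4 and 100.2 normalized reads summed), and the melanocyte list 2 of 7 (Dct, the most abundant, and Tyrp1; 549.0, 235.0, 138.5 and 265.8 against 75.2, 148.4, 74.6 and 51.7). The part of a changed cell makeup in the levels of the mitotic genes was not tested.

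Interfollicular markers had calls in both directions. Of 9 basal markers 1 was called lower (Krt15) and 1 higher (Itga3), with Krt5 the most abundant, and sums were 33172, 50727, 36612 and 54152 in controls and 35475, 33658, 37205 and 38687 in p16 cells. Of 10 differentiated markers 2 were called lower (Ivl and Sbsn) and 1 higher (Lor), with Krt10 the most abundant, and sums were 8360, 7498, 10084 and 7885 in controls and 9014, 8043, 9672 and 11312 in p16 cells. For the gated-out cells, Lum of fibroblasts, Lyz2 of myeloid cells and Cdh5, Kdr and Emcn of endothelium were at 0 in every sample. Of 7 fibroblast markers tested 2 were called lower (Vim and Fbln1, the most abundant) and 1 higher (Dcn), with sums of 206.1, 150.4, 96.8 and 209.3 against 138.4, 172.6, 293.4 and 78.2. The endothelial list of 4 had 1 called higher (Clec14a, the most abundant; sums of 20.8, 16.7, 14.2 and 13.8 against 54.4, 55.5, 46.1 and 30.4). The T cell list of 5 (sums of 799.7, 812.4, 679.8 and 598.9 against 688.4, 1482, 831.8 and 2918) was nearly all Thy1, 98.7% of its sum, and the Langerhans and myeloid list of 5 (1234, 1051, 1271 and 1137 against 1064, 1017, 985.1 and 727.6) was mostly Epcam, 88.3%, and neither had a gene called by limma, with 1 lower and 1 higher each at an unadjusted p under 0.05. The part of these cells in the mitotic gene levels was not tested.

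Base composition also varied with the samples. Over 10422 genes, the Spearman correlation across genes of the log2 ratio to the controls with the GC share of the last 500 transcript bases was 0.36 in p16 replicate 4 and between -0.05 and 0.04 in the other p16 samples, and -0.13, -0.23, 0.08 and 0.24 in the controls, given as a description of genes that are not independent replicates. The members had a median of 42.8% GC there, against 43.8% for all genes. The 29 members with less GC had a median log2 fold change of -0.36, and the 29 with more had -0.21. With the GC trend of each sample removed, an alternative added after seeing the data, 12 members were lower at an unadjusted p under 0.05, 0 were called and the median was -0.25.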

How the data were processed

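RNA-seq of sorted GFP+ keratinocytes was analysed for 4 control and 4 p16 samples. The study's 3' libraries followed an adapted CEL-Seq2 protocol, and the labels of replicate 3 of both groups name an Illumina RNA sequencing protocol in place of CEL-Seq. The samples came from 3 experiments, but the labels do not give the experiment of each. Per the submitters' processing notes, TopHat2, GRCm38, HTSeq and DESeq2 were used, with versions not given in the sources used here. The deposited signal values are read counts that the authors divided by a size factor per sample. 100% of values came out as whole reads when divided by the value of 1 read in their sample (to within the 1 decimal deposited). The columns of the authors' means, fold changes and p-values were not used, and 13 samples of a second profiling were not analysed here.

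Genes with a mean of at least 1 were compared by limma 3.58.1 (trend; R 4.3.3) on log2(normalized value + 1), with Benjamini-Hochberg adjustment over 12782 genes and a threshold of 0.05. Fold changes are on this scale, which understates those of low genes, except where edgeR or DESeq2 is named. Alternatives were edgeR 4.0.16 (quasi-likelihood) and DESeq2 1.42.0 on the recovered reads, another pseudocount, filters, scaling, a replicate block and left-out samples. The limma step was tested on simulated data. Samples are pools of 3 mice, and p-values measure the spread between pools. Reads shared between overlapping genes were not checked. Gene spans are those of GENCODE M21 (GRCm38), and promoters those of RefSeq.

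The members, role groups, pathway and marker lists were chosen with earlier results of these data known, and so no p over a list is given. Values in every sample are given for members past a threshold (unadjusted p under 0.05) and for Smc4 and Mki67. Per role group they are also given for the gene with the highest mean and that with the lowest fold change. Other members with a positive fold change are given by means. Ccna2, Ccnb1, Ccnb2, Foxm1, Plk1, Incenp, Ndc80, Nuf2, Spc25, Smc4, Ncapd2 and Mki67 were named after their values were seen. In pathway lists the gene with the lowest p is named, and in marker lists the most abundant gene and those called.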

Additional observations from a re-analysis of the deposited data

Results flagged for a closer look

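Of 52 groups of 4 samples tested for 1 sample standing apart (Dixon's test), 3 were flagged, where chance gives about 1 in 20. Ttk had 21.9 normalized reads in p16 replicate 2, against 11.2, 9.8 and 10.7 in the other p16 samples. Cenpa had 157.7 normalized reads in p16 replicate 2, against 113.5, 111.7 and 108.5 in the other p16 samples. Top2a had 404.9 normalized reads in control replicate 4, against 315.3, 304.2 and 312.4 in the other controls.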

How the results depend on the processing

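No member was called higher under any of the 18 alternatives, and 1 was called lower in only 1 of them, Top2a without p16 replicate 2 (adjusted p = 0.0137, limma), so that leaving out 1 sample gave 0 to 1 lower calls. The median log2 fold change of the members was between -0.42 (without p16 replicate 2) and -0.18 (without p16 replicate 4) with 1 sample left out, and -0.12 without replicate 4 of both groups, where 40 of 58 members were below 0 in place of 48. Members lower at an unadjusted p under 0.05 numbered 2 to 16 with 1 sample left out, 3 in DESeq2, and 1 without replicate 4 of both groups (added after seeing the data); the cause was not tested. Over all genes, calls numbered 69 to 196 higher and 177 to 343 lower with 1 sample left out, and 66 higher and 157 lower without replicate 3 of both groups, against 195 and 299 without replicate 4 of both and 159 and 334 with all samples; the cause was not tested. The same replicate numbers in both groups did not pair the samples (correlations of same-numbered deviations 0.11, 0.02, 0.06 and 0.18), and with a replicate block 14 members were lower at an unadjusted p under 0.05, 0 were called, and the median was -0.26. Of 447 single values of 25 members, 427 kept direction and side, 1 passed the threshold and 19 changed sign, in 8 members near 0. With 1 sample left out the log2 fold change ranged from -0.17 to 0.13 for Anln, -0.14 to 0.44 for Bub1, -0.00 to 0.14 for Cdca8, -0.00 to 0.09 for Cks2, -0.07 to 0.25 for Espl1, -0.21 to 0.14 for Nek2 and -0.09 to 0.12 for Pttg1. Without replicate 3 of both groups Bub1 was at -0.10 and Kif23 at -0.02, without replicate 4 of both Pttg1 was at -0.02, and Nek2 was at -0.03 in edgeR and -0.02 in DESeq2. Bub1 and Kif20b had at most 12 and 21 reads in any library, which limits the precision of their values.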
